A study of Mus musculus with 4 samples.

Results

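Transcripts of 6 Wnt ligand genes of the mouse tail bud, Wnt3, Wnt3a, Wnt5a, Wnt5b, Wnt8a and Wnt11, were compared in posterior tissue of Cdx2+/-Cdx4-/- embryos and wildtype embryos. The members are the non-control features of the arrays whose gene name is 1 of these 6, and they number 8 features of 41174. The tissue lay behind the last somite boundary of embryos with 5 to 6 somites, and 10 embryos of each genotype were pooled, per the labels. The mutant carries 1 inactive copy of Cdx2 and lacks Cdx4, and the wildtype carries both genes intact. The sources used here give neither the strain nor how the alleles were made, nor whether each replicate had a pool of its own. Mutant and wildtype RNA were hybridised together, 1 in Cy3 and 1 in Cy5, to each of 4 whole mouse genome arrays, called arrays 1 to 4 here. Their labels read replicate 1 (array 1), replicate 1 dye swap (array 2), replicate 2 (array 3) and replicate 2 dye swap (array 4).

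Wnt proteins are secreted, lipid-modified signals that bind Frizzled receptors on nearby cells. With Lrp5 or Lrp6 they stabilise beta-catenin, which acts with TCF and LEF factors on target genes, and with Ror2, Ryk or Vangl proteins they steer cell polarity and movement. In the tail bud, Wnt3a and Wnt8a are ligands of the beta-catenin branch that keep axial progenitors in place, Wnt3 is needed earlier to form the primitive streak, and Wnt5a, Wnt5b and Wnt11 are best known for the polarity branch and for elongation of the axis. Cdx2 and Cdx4 are caudal homeobox transcription factors of the same tissue, and caudal genes are themselves known targets of Wnt signalling there.

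The direction of the ratios is not settled by the labels. Cdx4 gave log2 ratios of Cy5 over Cy3 of -2.59, -2.11, 2.82 and 2.42 on arrays 1 to 4. Read by the labels, arrays 1 and 4 put Cdx4 below wildtype in the mutant, and arrays 2 and 3 put it above. Over 21801 features, arrays 1 and 3, which the labels give the same dyes, correlated at r = -0.43, as did arrays 2 and 4. Arrays 1 and 2, labelled as dye swaps of each other, correlated at r = 0.82, and arrays 3 and 4 at r = 0.87. The arrays were therefore turned so that Cdx4 was negative on each. The RNA with less Cdx4 is called Cdx4-low RNA and its partner Cdx4-high RNA, and every ratio is Cdx4-low over Cdx4-high. Cdx4-low RNA carries the mutant label on arrays 1 and 4 and the wildtype label on arrays 2 and 3. Read as mutant over wildtype, every sign below turns if the latter labels hold. The sources used here do not say whether the Cdx4 feature lies in the removed part of the gene. In this alignment Cdx2 was lower (log2 ratio -0.54) and Cdx1, the remaining caudal gene, was higher (0.40).

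Of the 6 ligands, Wnt3a and Wnt8a were higher in Cdx4-low RNA, by 1.27-fold and 1.29-fold, and each of the 4 arrays showed that direction. Wnt5a and Wnt5b were lower on all 4 arrays, by 1.15-fold and 1.18-fold, but passed the test in only some pairings of the arrays. Wnt3 and Wnt11 had ratios of both signs. All 8 features were well above background on all 4 arrays in both RNAs. The test was limma with arrays of the same labelled number averaged (n = 2 labelled replicates), Benjamini-Hochberg adjustment over the 21860 features tested and a threshold of 0.05, called the labelled-number pairing. Each gene was read from its brightest feature. In this pairing 2 of 6 ligands were called higher and 0 lower, which become 0 and 2 if the signs are turned, and 2 others were lower at an unadjusted p under 0.05. Over all 14875 genes tested, 2.9% were called higher and 3.89% lower. The share of all genes at an unadjusted p under 0.05 is not given, so counts at that threshold, here and below, stand without a background. If instead 2 array labels had been exchanged, the true partners would be arrays 1 and 3, and arrays 2 and 4. In this exchange pairing, which balances the dyes, limma called 2 ligands higher and 2 lower, beside 21.6% and 18.7% of all genes.

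**Figure D1:**
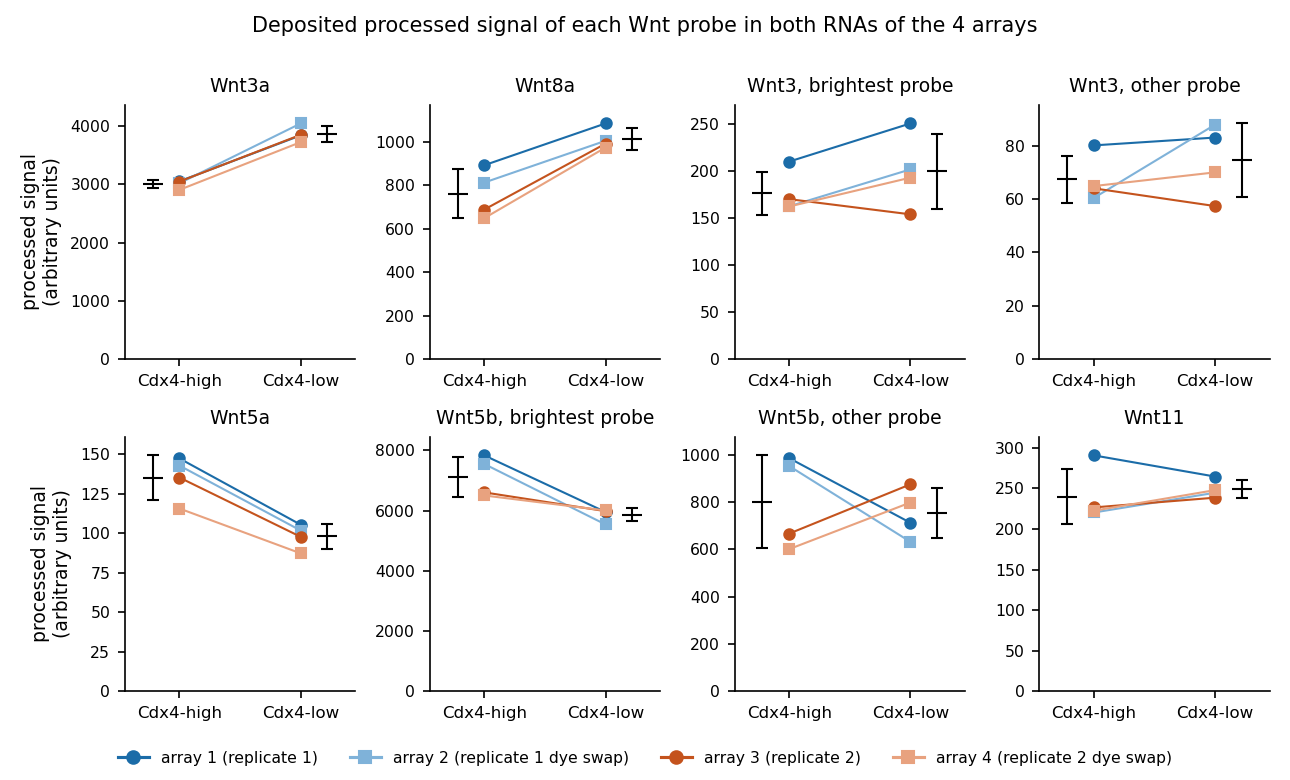
Deposited processed signal (arbitrary units) of the 8 Wnt features in Cdx4-high and Cdx4-low RNA, with 1 line per array and black bars for mean and SD over 4 arrays. The signals of both RNAs do not overlap for Wnt3a, Wnt8a, Wnt5a and the brightest feature of Wnt5b, and they cross between labelled replicates for the other feature of Wnt5b.

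The scanner signals show these differences before any refitting. Signals are the authors' background-subtracted and dye-normalised intensities in arbitrary units, given for arrays 1 to 4 in that order. Over all genes tested, both RNAs' signals failed to overlap across the 4 arrays in 13% of genes with Cdx4-low RNA above and in 14.3% with it below. Among the 6 ligands this held for 2 above and 2 below. Signals of different features cannot be ranked against each other, because each feature has its own hybridisation strength. In pooled tissue, fewer cells of a type and less RNA per cell cannot be told apart.

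Wnt3a, the ligand that sustains paraxial mesoderm and axis growth, was read by feature A_51_P210970 on chromosome 11 at 59064352 to 59064411 (mm8). Its signals were 3840.5, 4045, 3849.7 and 3724.4 in Cdx4-low RNA and 3053, 3019.7, 3048.2 and 2906.1 in Cdx4-high RNA. The lowest Cdx4-low signal thus stood above the highest Cdx4-high signal, with means of 3865 ± 133 and 3007 ± 68.7 (SD, n = 4 arrays). The normalised log2 ratios were 0.25, 0.44, 0.31 and 0.38, with a mean of 0.34 ± 0.09 (moderated SE, n = 2 labelled replicates), a 95% interval of 0.15 to 0.54 and an adjusted p of 0.0371 in limma. Of all genes tested, 6.53% had a larger absolute ratio. The call ended when any 1 of the 4 arrays was left out, with ratios of 0.30 to 0.39 and adjusted p of 0.0531 to 0.128. It also ended with the scanner's processed signals (0.36, adjusted p = 0.122), and in the exchange pairing the adjusted p was 6.59e-10.

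The promoter of Wnt3a is shown because it belongs to a called ligand and the study compares embryos that differ in caudal factors. Sequences are from RefSeq (GRCm38.p6), 250 bases before the transcription start, 5′ to 3′ on the gene's strand, and 4 of the 6 ligands had an entry, with 7 promoters in all. Wnt5a and Wnt8a had no entry, so their promoters were not searched. Each window of 250 bases before to 50 after a start was searched on both strands for the caudal-type core TTTATNG and for the TCF/LEF core CTTTGA. Of 32851 promoters in the table, 10.91% hold the former and 16% the latter. Capitals mark a match. No match was found in the Wnt3a window, whose G and C content is 86.3% against a median of 52.7% over all promoters.
Wnt3a, chr11:59290752-59291001, minus strand: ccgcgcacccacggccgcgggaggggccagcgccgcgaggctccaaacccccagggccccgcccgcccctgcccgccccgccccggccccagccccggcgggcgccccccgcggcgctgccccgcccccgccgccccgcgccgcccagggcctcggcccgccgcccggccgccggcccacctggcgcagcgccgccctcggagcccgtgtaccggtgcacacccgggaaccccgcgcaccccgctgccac
The Wnt3 window, with 65.7% G and C, held neither core either.

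Wnt8a, a ligand of the beta-catenin branch expressed in the primitive streak, was read by feature A_51_P240811 on chromosome 18 at 34672612 to 34672671 (mm8). Its signals were 1084.8, 1005, 991.76 and 973.98 in Cdx4-low RNA and 892.67, 812.94, 688.68 and 649.18 in Cdx4-high RNA. The groups did not overlap, and the Cdx4-high signals spread more widely, with means of 1014 ± 49 and 760.9 ± 112.2 (SD, n = 4 arrays). The log2 ratios were 0.20, 0.39, 0.41 and 0.46, so that array 1 was the lowest. The mean was 0.36 ± 0.10 (moderated SE, n = 2 labelled replicates), with a 95% interval of 0.16 to 0.56 and an adjusted p of 0.0293 in limma. Of all genes tested, 5.69% had a larger absolute ratio. As for Wnt3a, leaving out any 1 array ended the call (0.32 to 0.41, adjusted p of 0.0553 to 0.135), and so did the processed signals (0.42, adjusted p = 0.094). In the exchange pairing the adjusted p was 5.20e-11.

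Wnt3, the ligand required for gastrulation and the closest relative of Wnt3a in the family, was read by 2 features on chromosome 11. For the brighter one (A_52_P258116, 103632185 to 103632244, mm8) the signals were 250.85, 201.98, 154.16 and 193.19 in Cdx4-low RNA and 210.29, 162.69, 170.33 and 162.5 in Cdx4-high RNA. These ranges overlapped, and array 3 ran against the rest. The log2 ratios were 0.22, 0.16, -0.12 and 0.10, with a mean of 0.09 ± 0.10 (moderated SE, n = 2 labelled replicates) and an adjusted p of 0.737 in limma. The other feature (A_52_P361534, 103633814 to 103633873) gave a mean of -0.01 (adjusted p = 0.989). Arrays 1 and 2 gave 0.05 and 0.09 there, and arrays 3 and 4 gave -0.10 and -0.06.

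**Figure D2:**
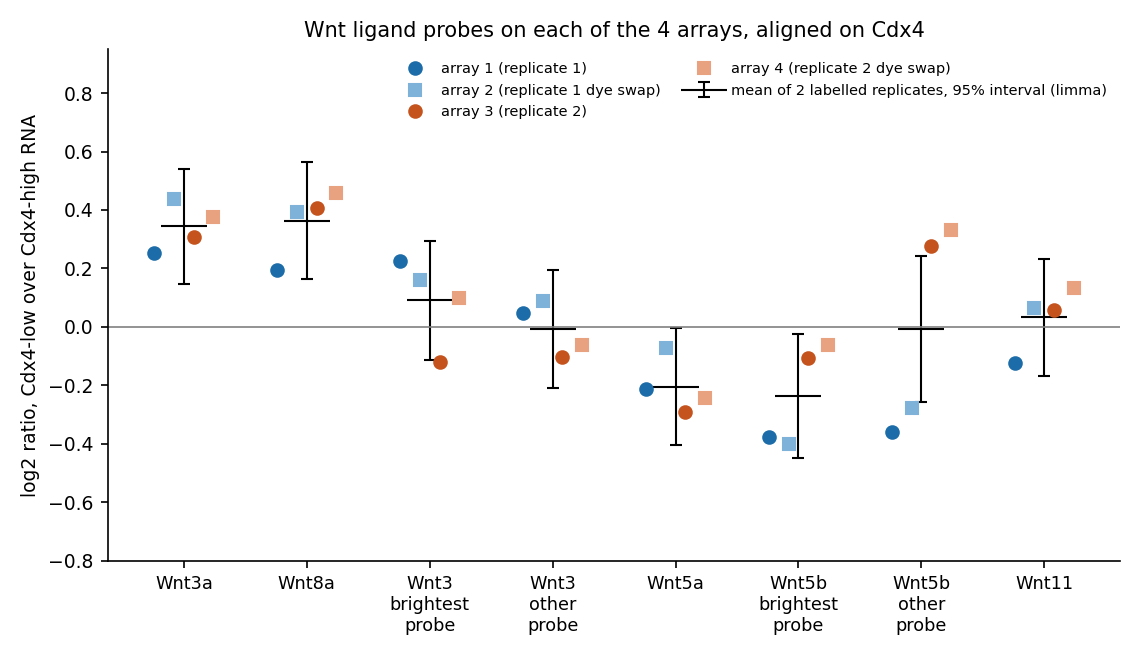
Normalised log2 ratio of Cdx4-low over Cdx4-high RNA for the 8 Wnt features, with 1 point per array and black bars for the limma mean and its 95% interval (n = 2 labelled replicates). All 4 points lie above 0 for Wnt3a and Wnt8a, all 4 below 0 for Wnt5a and the brightest feature of Wnt5b, and on both sides of 0 for the rest.

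Wnt5a, the ligand that drives convergent extension and outgrowth through Ror2, was read by feature A_51_P162272 on chromosome 14. Its listed interval (27345426 to 27349388, mm8) covers 3963 bases, against 60 or 61 for the other 7 features. The signals were 105.31, 101.63, 97.645 and 87.19 in Cdx4-low RNA and 147.21, 142.7, 135.13 and 115.53 in Cdx4-high RNA. The groups did not overlap, with means of 97.9 ± 7.82 and 135.1 ± 14 (SD, n = 4 arrays). The log2 ratios were -0.21, -0.07, -0.29 and -0.24, with a mean of -0.20 ± 0.10 (moderated SE, n = 2 labelled replicates) and an adjusted p of 0.273 in limma (unadjusted p = 0.0452). With the scanner's processed signals the ratio was -0.46 (adjusted p = 0.0567), a larger size that also missed the threshold. In the exchange pairing the adjusted p was 0.000459, so the call of Wnt5a rests on how the arrays are paired.

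Wnt5b, a close relative of Wnt5a expressed in the tail bud, was read by 2 features on chromosome 6 that did not give the same picture. For the brighter one (A_51_P137991, 119398613 to 119398672, mm8) the signals were 5951.6, 5538.3, 5980.3 and 6002.6 in Cdx4-low RNA and 7831.8, 7546.5, 6603.2 and 6501 in Cdx4-high RNA. The groups did not overlap, and the Cdx4-high signals were higher on arrays 1 and 2 than on arrays 3 and 4. The log2 ratios were -0.38, -0.40, -0.11 and -0.06, with a mean of -0.24 ± 0.10 (moderated SE, n = 2 labelled replicates) and an adjusted p of 0.222 in limma (unadjusted p = 0.0311). When arrays were centred on their median and not fitted by loess, the sign turned, to 0.25, while the median over all genes moved to 0.28. In the exchange pairing the adjusted p was 4.37e-05.

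The other Wnt5b feature (A_52_P85805, 119405921 to 119405980, mm8) lies 7308 bases away. Its signals were 712.16, 631.6, 874.47 and 797.62 in Cdx4-low RNA and 985.22, 951.98, 666.2 and 600.58 in Cdx4-high RNA. The log2 ratios were -0.36, -0.28, 0.28 and 0.33, with a mean of -0.01 (adjusted p = 0.991 in limma). The Cy3 signal was the higher of the pair on all 4 arrays, so that the sign followed the dye, which after alignment differs between the labelled replicates and cannot be told apart from them. The sources used here do not place either feature in an exon or an untranslated region on mm8. The lower Wnt5b value therefore rests on 1 feature of 2.

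Of 3 Wnt5b promoters in the RefSeq table, 1 held both cores. It is shown because no other promoter searched for the ligands, which leaves out Wnt5a and Wnt8a, matched the caudal-type core. TTTATGG begins 222 bases before the start and CTTTGA 71 bases before it, and the motifs do not overlap. A match is a description of the letters and not a binding site, and the sequence is from GRCm38.p6.
Wnt5b, promoter 3, chr6:119449387-119449636, minus strand: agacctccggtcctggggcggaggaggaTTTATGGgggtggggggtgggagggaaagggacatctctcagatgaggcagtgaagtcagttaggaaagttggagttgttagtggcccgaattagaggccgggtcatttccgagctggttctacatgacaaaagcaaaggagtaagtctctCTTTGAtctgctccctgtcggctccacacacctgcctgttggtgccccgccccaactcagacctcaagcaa
Of 2 promoters of Wnt11, 1 held the TCF/LEF core on the opposite strand, TCAAAG, which begins 50 bases before the start.
Wnt11, promoter 1, chr7:98834862-98835111, plus strand: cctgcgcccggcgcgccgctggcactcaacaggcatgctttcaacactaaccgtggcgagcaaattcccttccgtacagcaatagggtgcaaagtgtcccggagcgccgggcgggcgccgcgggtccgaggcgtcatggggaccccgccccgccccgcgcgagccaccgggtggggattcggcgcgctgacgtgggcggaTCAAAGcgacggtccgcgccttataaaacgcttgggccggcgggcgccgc

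Wnt11, a polarity ligand, was read by feature A_51_P503131 on chromosome 7 at 98728667 to 98728727 (mm8). Its signals were 264.68, 244.79, 238.7 and 248.02 in Cdx4-low RNA and 290.81, 220.41, 226.65 and 222.63 in Cdx4-high RNA. Array 1 alone had the lower signal in Cdx4-low RNA. The log2 ratios were -0.12, 0.06, 0.06 and 0.13, with a mean of 0.03 ± 0.10 (moderated SE, n = 2 labelled replicates), a 95% interval of -0.17 to 0.23 and an adjusted p of 0.929 in limma. Of all genes tested, 80.6% had a larger absolute ratio.

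The ligands can also be set against each other within an array, where a common shift of the array cancels. In order of mean log2 ratio they were Wnt8a, Wnt3a, Wnt3, Wnt11, Wnt5a and Wnt5b. Among neighbours in this order, only Wnt3a and Wnt3 had ranges over the 4 arrays that did not overlap. With the scanner's processed signals Wnt5a (-0.46) stood below Wnt5b (-0.28). Wnt3a exceeded Wnt5a by 0.55 on average (0.47 to 0.62) and Wnt5b by 0.58 (0.41 to 0.84), with the same sign on 4 of 4 arrays. Wnt8a exceeded Wnt11 by 0.33 (0.32 to 0.35), the narrowest spread of any pair, with an SD of 0.012. Wnt3a and Wnt8a differed by -0.02 (-0.10 to 0.06). These differences are descriptions without a test. Across 18 ways of processing the aligned arrays, the main one included, the difference of Wnt3a and Wnt5a ranged from 0.49 to 0.95. That of Wnt3a and Wnt5b ranged from 0.43 to 0.73, and with the dyes as labelled they were -0.01 and -0.05. These ways are not independent. Other pairings, the dye term and no filter cannot move a mean over the same arrays, the series table repeats the scanner's ratios, and the rest share arrays.

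**Figure D3:**
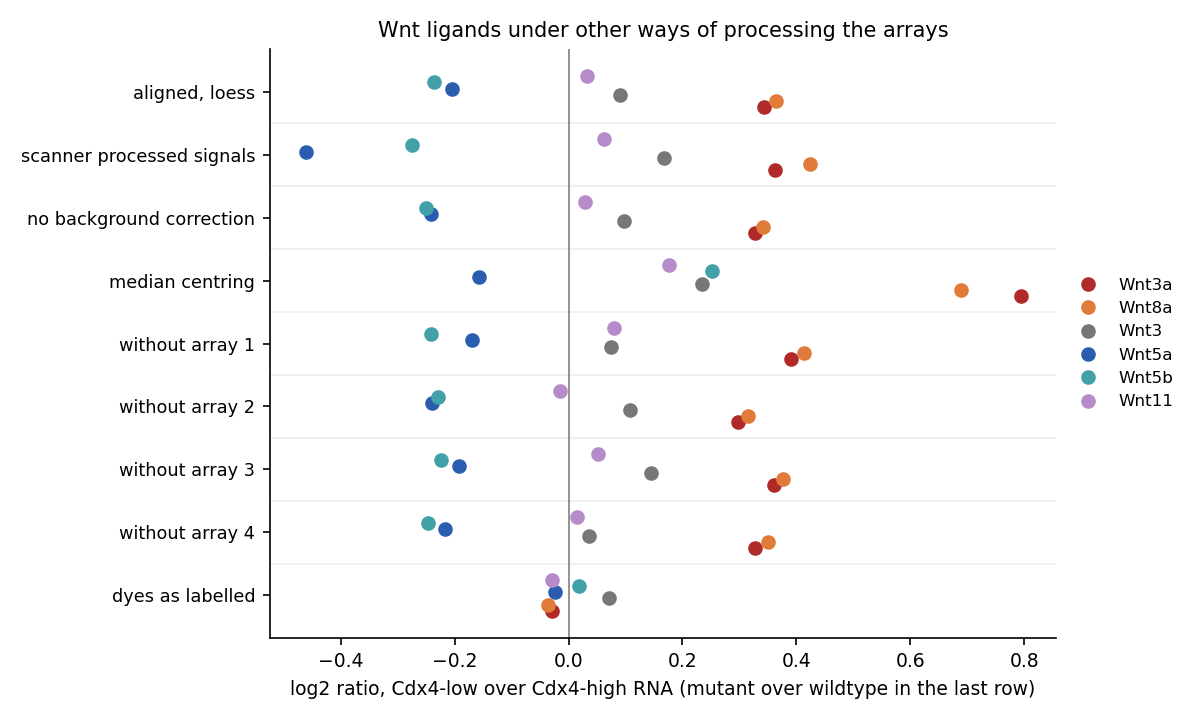
Log2 ratio of the 6 Wnt ligands (x axis) under 9 ways of processing the arrays (y axis), each gene from its brightest feature. Wnt3a and Wnt8a lie to the right of Wnt5a and Wnt5b in every row but the last, where the dyes are taken as labelled and all 6 lie between -0.04 and 0.07.

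The other Wnt ligands of the mouse were read alongside. Of 13, 7 were tested and the remaining 6 (Wnt1, Wnt2b, Wnt8b, Wnt9a, Wnt10b and Wnt16) were not well above background on all arrays in either RNA. Of the 7, 3 were called higher and 1 lower in the labelled-number pairing, with a median log2 ratio of 0.20 beside 0.015 over all genes and 0.06 over the 6 tail bud ligands. The median of the 7 was 0.33 without labelled replicate 1, 0.069 without labelled replicate 2 and 0.36 with the processed signals. Wnt10a had ratios of 0.43, 0.48, 0.56 and 0.49 and was 1.40-fold higher (adjusted p = 0.00398, limma). Wnt6, its immediate neighbour among protein-coding genes on chromosome 1, had 0.34, 0.17, 0.58 and 0.47 and was 1.31-fold higher (adjusted p = 0.0245), with 0.52 at its other feature. Wnt7a, a ligand of neural and surface epithelia, was 1.32-fold higher (adjusted p = 0.0325), at 0.63 without labelled replicate 1 and 0.18 without labelled replicate 2, and 1.09 with the processed signals. Wnt2, a ligand of the allantois and its vessels, was 1.27-fold lower (adjusted p = 0.0373), but its sign turned to 0.06 with median centring. Relative to the median over all genes, which moved to 0.28 there, Wnt2 was at -0.22. Wnt9b, the immediate neighbour of Wnt3, was at 0.03 (adjusted p = 0.947).

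Among 10 genes that acylate and export Wnt proteins, 0 were called in either direction by limma in the labelled-number pairing, and 1 higher and 0 lower at an unadjusted p under 0.05. Their median was -0.08. Porcn, the acyltransferase that every Wnt ligand needs, had ratios of 0.30, 0.19, 0.39 and 0.38 (adjusted p = 0.0635). Wls, the carrier that takes Wnt proteins to the surface, was at -0.14 (adjusted p = 0.549) at its brightest feature and -0.38 (adjusted p = 0.0308) at another. In the exchange pairing 1 of the 10 was called higher and 3 lower, where 21.6% and 18.7% of all genes were.

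Receptors were read by class. Of 8 Frizzled genes tested of 10, 2 were called higher and 0 lower, with a median of 0.18. That median was 0.026 without labelled replicate 1 and 0.20 without labelled replicate 2. Fzd9 had ratios of 0.77, 0.48, 0.82 and 0.53 and was 1.57-fold higher (adjusted p = 0.000335, limma), with 1.16 in place of 0.65 when read from the scanner's processed signals. Fzd2 was 1.33-fold higher with 0.36 to 0.48 on the 4 arrays (adjusted p = 0.0132). Fzd10 had 0.28 (adjusted p = 0.105) at its brightest feature and 0.36 (adjusted p = 0.027) at another, and Fzd1, Fzd3 and Fzd6 lay between -0.06 and -0.02. Of 5 co-receptors and alternative receptors tested, 0 were called, with 0 higher and 1 lower at an unadjusted p under 0.05. Ror2, a receptor of Wnt5a, was at 0.10 (adjusted p = 0.703) and Lrp6 at -0.12 (adjusted p = 0.574). Of 4 R-spondins and receptors tested, Lgr4, an R-spondin receptor, was 1.26-fold lower (adjusted p = 0.0474), with -0.33 becoming -0.59 with the processed signals and -0.31 (adjusted p = 0.0711) as the mean of its features. Rspo3, the R-spondin of the tail bud, was at 0.02.

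Secreted antagonists were called in both directions, with 2 higher and 1 lower of 11 tested and a median of 0.08. Notum, an enzyme that removes the lipid of Wnt proteins, had ratios of 0.12, 0.42, 0.48 and 0.49 and was 1.30-fold higher (adjusted p = 0.0269, limma), with 0.63 at its other feature. Dkk3, of the Dickkopf family, was 1.34-fold higher (adjusted p = 0.0114), a log2 ratio of 0.42 that became 0.92 with the processed signals. Sfrp1, a secreted Frizzled-like protein, was 1.34-fold lower (adjusted p = 0.0127), but only -0.08 at its other feature. The mean of both Sfrp1 features was not called (-0.25, adjusted p = 0.109). Dkk1, an Lrp6 antagonist, had 0.50 and 0.62 on arrays 1 and 2, and -0.05 and 0.04 on arrays 3 and 4 (adjusted p = 0.206). At its other feature the ratios were 0.14, 0.20, 0.23 and 0.26 (adjusted p = 0.269, limma).

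Of 26 intracellular genes of the beta-catenin branch, 2 were called higher and 1 lower, with a median of -0.002. Nkd1, a feedback inhibitor that binds Dishevelled, had ratios of 0.67, 0.67, 0.52 and 0.41 and was 1.49-fold higher (adjusted p = 0.00142, limma), and its relative Nkd2 was 1.30-fold higher (adjusted p = 0.0231). The other feature of Nkd2 was at 0.10 (adjusted p = 0.682), and the mean of both was not called (0.24, adjusted p = 0.128). Rnf43, a ligase that removes Frizzled receptors, was 1.38-fold lower (adjusted p = 0.0151), at -0.70 without labelled replicate 1 and -0.23 without labelled replicate 2. Its call ended without array 1 (adjusted p = 0.247) and without array 3 (adjusted p = 0.0676). Axin2, a widely used target of the branch, was at -0.01 (adjusted p = 0.984), and Ctnnb1, which encodes beta-catenin, at 0.07 (adjusted p = 0.816).

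Of 13 tail bud genes known to depend on Wnt3a that were tested, 2 were called higher and 0 lower, with a median of 0.17. The called genes were Nkd1, also a member of the intracellular list, and Cdx1, with ratios of 0.07, 0.32, 0.57 and 0.62 (1.32-fold, adjusted p = 0.0315, limma). Sp5, a zinc finger factor, was at 0.31 (adjusted p = 0.0671), T, the Brachyury factor, at 0.15 (adjusted p = 0.446), and Tbx6 at 0.17 (adjusted p = 0.398). In the exchange pairing 10 of the 13 were called higher, beside 21.6% of all genes. T, Tbx6, Msgn1, Dll1 and Fgf8 are also among the markers of the posterior growth zone below, and Mesp2 is among the somite markers. Dependence on Wnt3a and the share of such cells therefore cannot be told apart here.

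Of 18 polarity partners of Wnt5a and Wnt11, 0 were called higher and 3 lower, with a median of -0.015. Celsr1, a planar polarity cadherin, had ratios of -0.67, -0.46, -0.73 and -0.83 and was 1.59-fold lower (adjusted p = 0.000336, limma). Mapk8, the Jun kinase gene, was 1.44-fold lower (adjusted p = 0.00232), but only -0.05 at its other feature. The mean of both Mapk8 features was not called (-0.29, adjusted p = 0.0729). Rock1, a kinase of the actomyosin cytoskeleton, was 1.29-fold lower (adjusted p = 0.0274) and turned to 0.04 with median centring. Relative to the median over all genes, which moved to 0.28 there, Rock1 was at -0.24. Both other features of Rock1 were at -0.16 (adjusted p = 0.438 and 0.423), and the mean of its features was not called (-0.23, adjusted p = 0.149). Vangl2, the core polarity gene of the elongating axis, was at -0.06 (adjusted p = 0.84). In all, 98 pathway genes were tested, of which 10 were called higher and 7 lower, beside 2.9% and 3.89% of all genes, and which become 7 and 10 if the signs are turned. Without array 1 these counts were 2 and 1, beside 0.592% and 0.511% of all genes. Without array 2 they were 5 and 4 (1.61% and 2.84% of all genes), without array 3 they were 5 and 3 (1.89% and 2.14%), and without array 4 they were 8 and 5 (2.12% and 3.17%). With arrays 1 and 4 alone the counts were 5 and 4 (1.5% and 2.35%), with arrays 2 and 3 alone 5 and 2 (1.56% and 1.67%), and neither pair of arrays called a tail bud ligand. With arrays 1 and 4 averaged and arrays 2 and 3 averaged, called the cross pairing, 30 pathway genes were called higher and 22 lower, beside 28.9% and 24.2% of all genes. A fit of 4 arrays with a dye term called 29 and 20, beside 24.8% and 20.6%. Of 17 called pathway genes, Celsr1, Fzd9 and Nkd1 were called with each 1 array left out, and the others lost their call without at least 1 array.

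**Figure D4:**
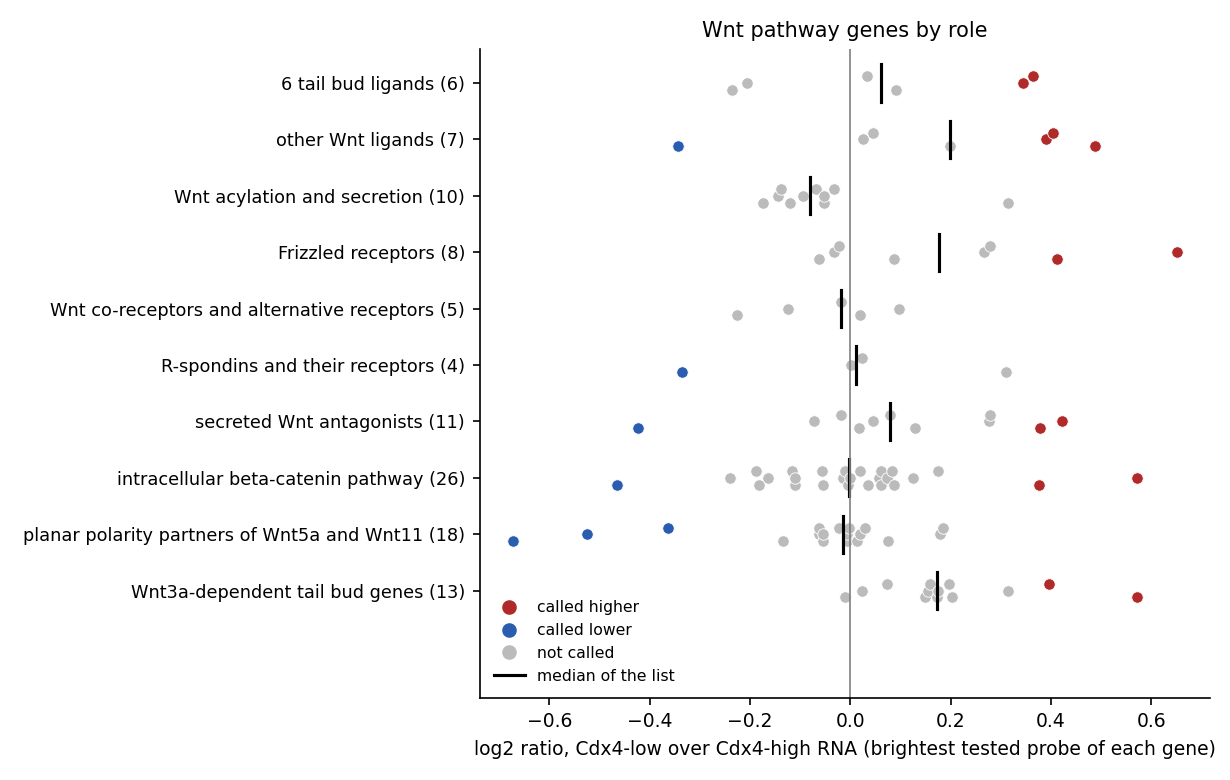
Log2 ratio of Cdx4-low over Cdx4-high RNA (x axis) for each tested gene of 10 groups, the 6 tail bud ligands and 9 lists by role (y axis, number tested in brackets), with black ticks for medians. Red points are genes called higher, blue points genes called lower and grey points the rest in the labelled-number pairing. The counts called higher and lower are 2 and 0 for the tail bud ligands and 3 and 1 for other ligands. They are 2 and 0 for Frizzled receptors, 2 and 1 for antagonists and 2 and 1 for the intracellular list. The R-spondin list has 0 and 1, polarity partners 0 and 3 and Wnt3a-dependent genes 2 and 0, and the remaining lists 0 and 0. Over all genes tested, 2.9% were called higher and 3.89% lower.

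Genes that mark other cells in the dissected tissue also differed between the RNAs. All 12 markers of the posterior growth zone were tested, with 1 called higher (Fgf17) and 1 lower (Cyp26a1). Their median log2 ratio was 0.16, beside 0.015 over all genes. In the exchange pairing 7 of them were called higher and 2 lower, where 21.6% and 18.7% of all genes were. Their summed linear level was 35956 to 40435 in Cdx4-low and 37546 to 38861 in Cdx4-high RNA. All 14 markers of visceral endoderm were called lower, with sums of 39660 to 41313 and 83973 to 96557, Afp being 4.11-fold lower. Of the somite markers 4 of 7 tested were higher, led by Meox1 (1.88-fold), with sums of 7154 to 8031 and 5295 to 5609, and of the neural plate markers 3 of 4, led by Gbx2 (1.67-fold), with 3176 to 3522 and 2104 to 2290. Of 5 primitive erythroid genes tested, 3 globin genes were higher (Hbb-bh1 2.54-fold), with sums over the 5 of 6067 to 6591 and 3248 to 3639. Hba-a1, a globin gene with a near-identical copy, was negative on all 4 arrays (-0.28, adjusted p = 0.119 in limma) and was called lower in the exchange pairing, and Alas2, a haem synthesis gene, was at 0.0035. Endothelial genes were lower in 4 of 11 (Kdr 1.95-fold, 9727 to 9914 and 13579 to 15012), allantois and lateral plate genes higher in 1 and lower in 2 of 10 (18520 to 19871 and 20849 to 21459), and trophoblast genes higher in 1 and lower in 2 of 4 (Prl8a2 2.65-fold lower, 1947 to 2143 and 2519 to 3057). Of the head and heart markers, Otx2, Six3, Emx2, Rax and Myh6 were not well above background on all arrays in either RNA, and 0 of the 3 markers tested were called, with 0 higher and 0 lower at an unadjusted p under 0.05. The part of these markers in the Wnt ratios was not tested.

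By Euclidean distance over the 4 array ratios, the genes nearest to Wnt3a were Tspan7 (0.0565), Heph (0.0623) and Pusl1 (0.0693), of 12311 named genes searched. Those nearest to Wnt8a were Rfk (0.071), Stard3nl (0.0802) and Tstd3 (0.0875). With only 4 arrays likeness is easily reached, and 163 genes lay within 0.2 of Wnt3a and 96 within 0.2 of Wnt8a.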

How the data were processed

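The submitters' processing notes name Agilent Feature Extraction 9.5.3 as the source of the 4 scanner files. These hold, per the file headers, intensities of each spot (mean signal, median local background, and the processed signal) and a log10 ratio of Cy5 over Cy3. The authors' deposited series table is in log10 and equalled that ratio for 100% of features (tolerance 1e-05), with its sign turned on the dye swaps and a median of 0 per array. No aligner or genome build applies, and positions are those in the scanner files.

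From the intensities, limma 3.58.1 (R 4.3.3) computed log2 ratios by normexp with an offset of 50 and loess within each array, with control spots at weight 0. Spots flagged as outliers by the scanner software were dropped (103 to 167 of them on an array). A feature was tested if well above background on all 4 arrays in at least 1 of the aligned RNAs. Each channel had 50.6% to 64.9% of its spots well above background, and 0 to 7 were saturated. The number of arrays limits the precision. Arrays of 1 labelled replicate were averaged, and the 2 means were fitted with lmFit and eBayes against 0, with Benjamini-Hochberg adjustment. The standard error is mostly pooled over genes, with 16.97 prior degrees of freedom. The labels do not say whether each replicate had its own pool. The p-values thus reflect the spread between the 2 means. That spread holds the dye, which differs between them after alignment, and any difference of pools, and it may be technical alone. All arrays lie on 1 slide.

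Of 41174 features, 23374 were named through a RefSeq accession (GRCm38.p6), 6733 already bore a symbol in use, 2919 bore an older symbol that was updated and 8148 kept the file's name. Named are the 6 ligands, called genes of each list (at most 4 of largest ratio in each direction, and 2 for markers), the 3 genes nearest to each called ligand and the Cdx genes. Other genes of a list are named for their known role or after their values were seen. The members and lists were chosen with earlier results of these data known. Other pairings, the dyes as labelled, other background corrections and normalisations, no filter, the mean of a gene's features and leaving out arrays were tried as alternatives. A marker of the head and heart list is not reported here.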

Additional observations from a re-analysis of the deposited data

Results flagged for a closer look

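The arrays carry 10 spike-in features that no comparison here used. Their lowest median intensity over both channels of the 4 arrays was 1648 (1648.4 before rounding), against at most 105.63 for the median of the negative controls. They hold control RNA and no embryonic transcript. Among 25 genes with 4 array ratios each, the 6 ligands and the called pathway genes included, no array stood apart from the other 3 by Dixon's test, which chance alone passes in about 1 of 20 groups.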

How the results depend on the processing

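Limits come first. The labels do not settle the direction, the 4 arrays give 2 labelled replicates, dye and labelled replicate cannot be told apart after alignment, and slide could not be used as a block because there is only 1. The prior degrees of freedom were infinite in the exchange pairing, so that all features share an SE of 0.0519 there and calls are many. With median centring the median over all genes moved from 0.015 to 0.28, and relative to it Wnt3a was at 0.51, Wnt8a at 0.41, Wnt5a at -0.44 and Wnt5b at -0.03. The arrays used in pairs by their agreement with Cdx4 were chosen after seeing the data. The cause of these changes was not tested, except that leaving out arrays leaves fewer samples and no filter tests more features.

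Wnt3a was at -0.029 with the dyes as labelled (adjusted p = 1), at 0.362 with the processed signals and with the authors' series table (adjusted p = 0.122), at 0.794 with median centring (adjusted p = 0.815) and at 0.344 with no filter (adjusted p = 0.126). It was at 0.315 with arrays 1 and 4 (adjusted p = 0.11) and 0.373 with arrays 2 and 3 (adjusted p = 0.0973), and at 0.298 to 0.390 with 1 array or replicate left out. Wnt8a was at -0.036 as labelled, 0.425 with the processed signals and with the series table (adjusted p = 0.094), 0.689 with median centring and 0.364 with no filter (adjusted p = 0.144). With the same pairs of arrays it was at 0.328 (adjusted p = 0.128) and 0.40 (adjusted p = 0.0658), and at 0.294 to 0.434 with 1 array or replicate left out. Both were called in 5 of 16 tested alternatives. Wnt5a at -0.205 and Wnt5b at -0.236 passed in the exchange pairing, the cross pairing (arrays 1 and 4, arrays 2 and 3) and with 4 arrays and a dye term, 3 of 16 alternatives. Wnt5b turned to 0.018 as labelled and 0.251 with median centring. Wnt11 turned to -0.029 as labelled and ranged from -0.030 to 0.096 with 1 array or replicate left out, at -0.014 without array 2. Wnt3 was called in 0 of 16.

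The count of ligands called higher was 0 as labelled, with the processed signals, the series table, median centring and no filter, with either pair of arrays and with any 1 array left out. The count called lower was 2 in the exchange and cross pairings and with the dye term. Pathway genes called higher numbered 29, 30 and 29 in the exchange pairing, the cross pairing and with the dye term, 0 as labelled, with median centring and with no filter, 5 with either pair of arrays, and 2 to 8 with 1 array left out. Those called lower numbered 17, 22 and 20 in those 3 fits, 0 as labelled, with median centring and with no filter, 4 with the processed signals and the series table, 3 with the mean of all features of a gene, 4 and 2 with the pairs of arrays, and 1 to 5 with 1 array left out. As labelled, Cdx1 turned to -0.050, Fzd2 to -0.0074, Nkd1 to -0.027, Nkd2 to -0.012, Notum to -0.074, Wnt10a to -0.029 and Wnt7a to -0.053. With median centring Rock1 turned to 0.040 and Wnt2 to 0.057. Relative to the median over all genes they were at -0.24 and -0.22 there. Read from the processed signals or the series table, Wnt7a (1.09), Dkk3 (0.917), Fzd9 (1.16) and Lgr4 (-0.593) had ratios over 1.5 times larger in size. Medians of the 9 lists were 0.0895 to 0.575 with median centring. Over all genes, 432 were called higher and 578 lower in the labelled-number pairing, 3215 and 2787 in the exchange pairing, 4303 and 3601 in the cross pairing (28.9% and 24.2%), 3682 and 3064 with the dye term (24.8% and 20.6%), 503 and 886 with the processed signals (3.38% and 5.96%), 391 and 440 with the mean of features (2.63% and 2.96%), 10 and 4 with no filter, 0 and 0 with median centring and 2 and 22 as labelled.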
